A study of Mus musculus with 40 samples.

Results

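The genes whose symbol starts with Kcn encode the pore-forming and accessory subunits of potassium channels. Of the 55414 genes in the expression table, 99 had such a symbol. Removing 4 opposite-strand transcripts left 95 members, of which 94 encode channel subunits or their regulators and 1, Kcnq1ot1, is a noncoding transcript that starts inside Kcnq1. RNA was sequenced from mpkCCD cells, a mouse collecting duct line that was immortalized and was here polarized on Transwell membranes. The cells had 0.1 nM dDAVP, an analogue of vasopressin, for 72 hours. The 22 libraries fall into 3 experiments by consecutive library numbers, a division that the labels do not call batches. Experiment 1 has unmodified control clones 1 to 5 (genotype WT) and 5 libraries labelled ATF1-KO. Experiment 2 has control clones 6 to 8 and 3 libraries labelled ATF1/CREB1-KO, and experiment 3 has control clones 9 to 11 and 3 libraries labelled ATF1/CREB1/CREM-KO. All 22 libraries received dDAVP, so none shows the cells without it. It is not stated if libraries of 1 knockout label come from separate clones or from repeated cultures, so the p-values measure the spread between these libraries only.

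Potassium channels set the membrane potential of tubule cells. In principal cells of the collecting duct, sodium enters through the epithelial sodium channel and is pumped out across the basolateral membrane, while potassium leaves through apical channels such as ROMK (Kcnj1) and the BK channel (Kcnma1) or returns across the basolateral membrane through inward rectifiers such as Kir4.1 (Kcnj10) with Kir5.1 (Kcnj16). The classes are the voltage-gated pore subunits, the inward rectifiers (Kcnj), the tandem-pore or K2P channels (Kcnk), the calcium- or sodium-activated channels, and the accessory subunits. ATF1, CREB1 and CREM are transcription factors that bind the cAMP response element, and vasopressin acts on these cells through cAMP.

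The values are TPM, in which each library sums to the same total and transcript length is corrected for, so levels can be compared between genes. Sequencing depth is not given by TPM, and a value listed at 0 may be a gene without reads or an estimate that failed. Libraries of experiment 2 differed in composition from the others: ribosomal protein genes took 7.21% to 15.3% of their TPM against 2.69% to 4.15% elsewhere, and the median log2 difference of its control clones from the other control clones was -1.34 over 13334 genes and -0.95 over 14 Kcn genes. Over all 22 libraries, 8 of the 10 principal cell markers had a mean of at least 1 TPM, as did 3 of the 7 intercalated cell markers (Atp6v1b1, up to 102.82 TPM, Aqp6 and Rhbg), 1 of the 4 of the proximal tubule (Lrp2, up to 25.2 TPM) and 1 of the 2 of leukocytes (Cd68, up to 13.11 TPM). The markers of podocytes, endothelium, fibroblasts, muscle, neurons, the thick ascending limb and the distal convoluted tubule had means under 1 TPM over the 22 libraries, but in the libraries labelled ATF1/CREB1/CREM-KO alone Slc12a3 had a mean of 2.44 TPM and Rbfox3 one of 1.07 TPM. Aqp2, the vasopressin-regulated water channel, was at 15.1 to 16.05 TPM in the libraries labelled ATF1/CREB1/CREM-KO and at 640.62 to 2279.29 TPM in control clones 9 to 11. Of the targeted transcripts, Atf1 was at 63.0% of the control mean in ATF1-KO, and Atf1 was at 77.8% and Creb1 at 61.0% in ATF1/CREB1-KO. In ATF1/CREB1/CREM-KO Atf1 was at 80.8% and Creb1 at 49.6%, while Crem, at 135%, was above every control clone of its experiment. Directions are therefore given for libraries as labelled, and values from whole transcripts do not show whether protein was lost.

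Few Kcn genes were expressed in control clones. A mean of at least 1 TPM was reached in all 3 experiments by 7 of 95 members (7.37%), against 48.0% of 21927 protein-coding genes. In at least 1 experiment it was reached by 14 members: 12 in experiment 1, 8 in experiment 2 and 13 in experiment 3. By class, these were 5 of 14 K2P channels, 3 of 15 inward rectifiers, 3 of 17 accessory subunits, 1 of 40 voltage-gated subunits, 1 of 8 calcium- or sodium-activated channels and the noncoding Kcnq1ot1. The other members were low: 65 of 95 never reached 0.5 TPM in any of the 22 libraries, and 16 were listed at 0 in all of them, including Kcnk6, Kcnj2 and Kcne3.

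**Figure D1:**
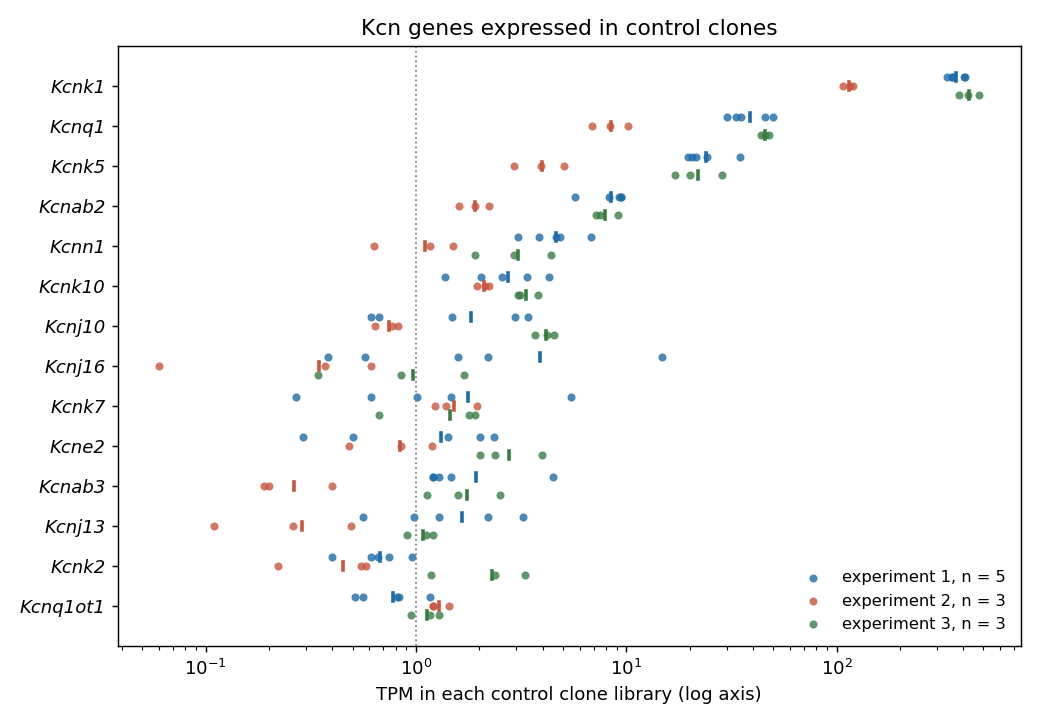
Levels of the 14 Kcn genes with a control mean of at least 1 TPM in 1 or more experiments. Each point is 1 control clone library (x axis, TPM, log axis), colours mark experiments 1, 2 and 3, short bars are means and the dotted line is 1 TPM. Kcnk1 stands above every other member in all 11 control clones, and most members lie lower in experiment 2.

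A single K2P channel made up most of the Kcn expression. Kcnk1 (ENSMUSG00000033998, chromosome 8) encodes TWIK-1, a weakly inwardly rectifying K2P channel. Its share of the summed TPM of all members was 72.0% to 86.4% over the 22 libraries. Control clones 1 to 5 had a mean of 371 TPM ± 32.5 (SD, n = 5), control clones 6 to 8 one of 114 TPM ± 6.74 (SD, n = 3), and control clones 9 to 11 one of 428 TPM ± 48.2 (SD, n = 3). Next came Kcnq1 (chromosome 7), the voltage-gated subunit Kv7.1 that pairs with KCNE subunits, at 38.7, 8.49 and 45.8 TPM in the control clones of experiments 1, 2 and 3. Kcnk5 (chromosome 14), the pH-sensitive K2P channel TASK-2, followed at 24.1, 3.98 and 21.8 TPM. Lowest among these main members was Kcnab2 (chromosome 4), a beta subunit of Shaker-type channels, at 8.42, 1.92 and 7.92 TPM. The order Kcnk1, Kcnq1, Kcnk5, Kcnab2 held in every experiment, and the first 2 did not overlap in any control clone. Kcnq1 and Kcnk5 overlapped in range in experiment 1, where Kcnq1 was at 30.03 to 49.66 TPM and Kcnk5 at 19.57 to 34.57 TPM, and in experiments 2 and 3 they were separate.

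The remaining expressed members had control means of 0.26 to 4.64 TPM. Among these are Kcnn1, the small-conductance calcium-activated channel SK1 (4.64, 1.10 and 3.07 TPM in the control clones of experiments 1, 2 and 3), and the K2P channels Kcnk10, known as TREK-2 (2.72, 2.10 and 3.33 TPM), Kcnk7 (1.77, 1.52 and 1.46 TPM) and Kcnk2, the mechanosensitive TREK-1 (0.67, 0.45 and 2.29 TPM). The inward rectifiers were Kcnj10 (1.82, 0.74 and 4.14 TPM), Kcnj16 (3.90, 0.35 and 0.96 TPM) and Kcnj13, Kir7.1 (1.65, 0.29 and 1.08 TPM). The accessory subunits were Kcne2, a single-span subunit of Kv7.1 and hERG channels (1.31, 0.84 and 2.78 TPM), and Kcnab3 (1.93, 0.26 and 1.74 TPM). The noncoding Kcnq1ot1 was at 0.78, 1.28 and 1.13 TPM, so it was the only one of the 14 with its highest control mean in experiment 2. The kit does not mark strand, and exons of Kcnk1, Kcnq1, Kcnn1, Kcnk2, Kcnj13 and Kcnab3 overlap a gene on the opposite strand (Gm45875, Kcnq1ot1, A230052G05Rik, A430027H14Rik, Gigyf2 and Kcnab3os), so reads of these pairs cannot be told apart by strand. Kcnab2 shares exon sequence with Gm16334 on its own strand.

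Channels known for potassium secretion in the native duct were near 0. Kcnj1 was at 0 to 0.14 TPM in the 11 control clones and reached at most 0.42 TPM in any library. Kcnma1 was listed at 0 in 20 of 22 libraries and at 0.01 and 0.02 TPM in the others. The BK beta subunit Kcnmb4 had control values of 0 to 0.38 TPM, but Lrrc26, a BK gamma subunit outside the Kcn symbols, was at 34.7, 18.7 and 31.0 TPM in the control clones of experiments 1, 2 and 3. Kcnn4, the intermediate-conductance calcium-activated channel, was at 0 to 1.13 TPM in control clones, and Kcne1, the subunit that slows Kv7.1, at 0.03 to 1.33 TPM.

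The promoter sequences of 2 expressed members are shown because CREB-family factors bind the cAMP response element (TGACGTCA) and its shorter core TGACG, and these members have the most cores among the expressed members matched. RefSeq promoters (GRCm38.p6, 250 bases before to 50 after the start) matched 70 of 95 members by symbol, with 95 promoters. Kcne2 (chr16:92292139-92292388, plus strand) and Kcnab2 (chr4:152477550-152477799, minus strand) are printed for the 250 bases before the start, 5′ to 3′, with TGACG on either strand (TGACG or CGTCA) in capitals.
Kcne2: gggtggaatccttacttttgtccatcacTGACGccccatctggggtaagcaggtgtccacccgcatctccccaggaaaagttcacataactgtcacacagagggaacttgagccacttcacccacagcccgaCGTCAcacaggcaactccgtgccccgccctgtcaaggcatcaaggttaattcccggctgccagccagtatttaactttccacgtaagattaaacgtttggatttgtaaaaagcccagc
Kcnab2: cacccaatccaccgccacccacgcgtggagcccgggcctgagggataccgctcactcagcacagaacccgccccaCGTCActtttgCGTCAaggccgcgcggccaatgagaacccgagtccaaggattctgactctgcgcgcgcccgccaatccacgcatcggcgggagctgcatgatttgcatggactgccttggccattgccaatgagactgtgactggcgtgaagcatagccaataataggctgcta
In Kcne2 the cores begin at -222 and -118, and in Kcnab2 at -175 and -164, counting -1 as the base before the start. Each gene has another listed promoter without a core. The full element, searched on both strands, was in 0 of 70 member genes against 2.03% of 26994 genes, and the core was in 19 of 70 member genes (27.1%) against 23% of all genes; a full element also holds the core. The windows of Kcnk1, Kcnk5, Kcnj10 and Kcnk10 held no core. Those of Kcnn1, Kcnj13 and Kcnq1ot1, also expressed, held a core at -130, -195 and -42. A match in letters is a description of the window and not a measured binding site. In the main comparisons below, Kcne2 was called lower in the libraries labelled ATF1/CREB1/CREM-KO. Kcnab2, Kcnn1, Kcnj13 and Kcnq1ot1 did not pass the test in any label where they were tested.

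Each knockout label was compared with the control clones of its own experiment by limma on log2(TPM + 1). Genes entered a comparison if they averaged 1 TPM or more over its libraries, and a gene was called at a Benjamini-Hochberg adjusted p under 0.05 over all genes tested. On this scale the change of a low gene is understated. The low-value filter left 13 members for ATF1-KO, 9 for ATF1/CREB1-KO and 13 for ATF1/CREB1/CREM-KO, so most of the 95 members could not be tested.

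No Kcn gene was called in the libraries labelled ATF1-KO. Of 13 members tested, 0 were called by limma at an adjusted p under 0.05, and of all 13318 genes 0 were called (0%), while 1014 genes and 3 members had an unadjusted p under 0.05. These 3 were Kcnk5, Kcnk2 and Kcnj13. Kcnk5 was at 21.43, 34.57, 24.16, 20.55 and 19.57 TPM in control clones 1 to 5 and at 25.97, 14.34, 13.86, 16.02 and 18.92 TPM in ATF1-KO 1 to 5. Its log2 change was -0.42 (SE 0.19, adjusted p 0.656). In 4 of the 5 knockout libraries it lay below every control clone, and replicate 1 lay inside the control range. Kcnk2 had a mean of 1.84 TPM ± 0.92 (SD, n = 5) against 0.67 TPM ± 0.20 (SD, n = 5), and Kcnj13 one of 0.53 TPM ± 0.26 against 1.65 TPM ± 1.07, with log2 changes of 0.70 (adjusted p 0.618) and -0.72 (adjusted p 0.623). Kcnk2 passed the filter only through the knockout libraries and Kcnj13 only through the control clones, so both had to differ. Kcnk1 was at 312.01 to 402.58 TPM against 335.61 to 407.38 TPM, ranges that overlapped, and the 95% interval of its log2 change was -0.33 to 0.06. None of the 13 separated all knockout from all control libraries, and 1.3% of all genes tested did.

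In the libraries labelled ATF1/CREB1-KO, again 0 of 9 members were called, beside 9 of 12579 genes (0.0715%); 0 of the 9 members had an unadjusted p under 0.05. Kcnk10 was the only one of the 9 whose libraries did not overlap. Its values were 2.23, 2.13 and 1.95 TPM in control clones 6 to 8 and 0.66, 1.82 and 1.31 TPM in ATF1/CREB1-KO 1 to 3, with a log2 change of -0.49 (SE 0.27, adjusted p 0.615). All 3 knockout libraries were lower than all 3 controls, as was the case for 12.4% of the genes tested. Kcnk1 was at 116.43, 119.80 and 106.82 TPM in the controls and at 79.85, 86.40 and 173.79 TPM in the knockout libraries. Replicates 1 and 2 lay below the controls and replicate 3 above them. Replicate 3 also stood apart over all genes: 26.6% and 21.7% of 12579 genes differed by more than 1 on the log2 scale between it and replicates 1 and 2, against 6.14% between those. Kcnq1 was at 8.77 TPM against 8.49 TPM in the controls, and the 95% interval of its log2 change was -0.47 to 0.56.

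Kcnq1, Kcnk10 and Kcne2 were called lower in the libraries labelled ATF1/CREB1/CREM-KO, and none of the members tested was called higher. The log2 change was below 0 in 9 of the 13 members tested and in 55.5% of all genes tested. Kcnj13 had the largest change above 0, at 0.61 (limma adjusted p 0.312). The 3 called of 13 members tested stand beside 1216 of 13258 genes called in either direction (9.17%), 698 called lower (5.26%) and 518 called higher (3.91%). The median log2 change was -0.53 over the 13 members and -0.05 over all genes tested. The median of the members is the value of Kcnab3, with means of 1.74 TPM in the control clones and 0.87 TPM in the knockout libraries. Kcnab3, Kcnk7 (1.46 and 0.82 TPM) and Kcne2 passed the low-value filter only through the control clones, and so had to differ. The filter thus has a part in this median. In 5 of the 13, Kcnk1, Kcnq1, Kcnk10, Kcnj10 and Kcne2, all 3 knockout libraries lay below all 3 control clones, as they did in 20.2% of the genes tested. None of the 13 lay above all controls, and 14.5% of the genes tested did.

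Kcne2 (chromosome 16) had the largest decrease of these. It was at 2.01, 3.96 and 2.38 TPM in control clones 9 to 11 and at 0.08, 0.57 and 0.57 TPM in ATF1/CREB1/CREM-KO 1 to 3. Every knockout library was under the lowest control clone, and the control mean was 6.84 times the knockout mean. The log2 change was -1.41 (SE 0.30, adjusted p 0.0354). Kcne2 passed the filter on low values only through the control clones, and so had to differ. Its means were 2.78 TPM there and 0.41 TPM in the knockout libraries. Beside this, genes of chromosome 16 as a whole had a median log2 difference of -0.76 in replicate 1, and of -0.05 and -0.02 in replicates 2 and 3. With each library centred on the median of each chromosome the change of Kcne2 was -1.09 (adjusted p 0.0497).

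Kcnk10 (chromosome 12) was at 3.81, 3.06 and 3.13 TPM in control clones 9 to 11 and at 1.45, 0.89 and 1.60 TPM in the knockout libraries. The groups did not overlap, and the log2 change was -0.91 (SE 0.22, adjusted p 0.0488). Kcnq1 was at 43.69, 47.98 and 45.59 TPM and at 26.08, 32.47 and 35.41 TPM, again without overlap, with a change of -0.54 (SE 0.13, adjusted p 0.0484). Its control mean was 1.46 times the knockout mean.

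Kcnk1, the most abundant member, was not called. It was at 423.46, 478.62 and 382.62 TPM in control clones 9 to 11 and at 358.68, 240.62 and 240.45 TPM in ATF1/CREB1/CREM-KO 1 to 3. All 3 knockout libraries lay below the controls, with replicate 1 nearer to them, but the log2 change of -0.63 (SE 0.18) did not pass the test (adjusted p 0.0725). Genes of chromosome 8, where Kcnk1 lies, had a median log2 difference of 0.18 in replicate 1 and of -0.01 in replicates 2 and 3, and with chromosome medians removed Kcnk1 was called (-0.65, adjusted p 0.0232). Kcnj10 was at 4.52, 4.21 and 3.68 TPM against 2.66, 0.87 and 1.37 TPM, also without overlap, with a change of -1.02 (SE 0.28, adjusted p 0.0713). The summed TPM of all members, most of it Kcnk1, was 478.79 to 597.12 in control clones 9 to 11 and 322.81 to 433.52 in the knockout libraries.

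**Figure D2:**
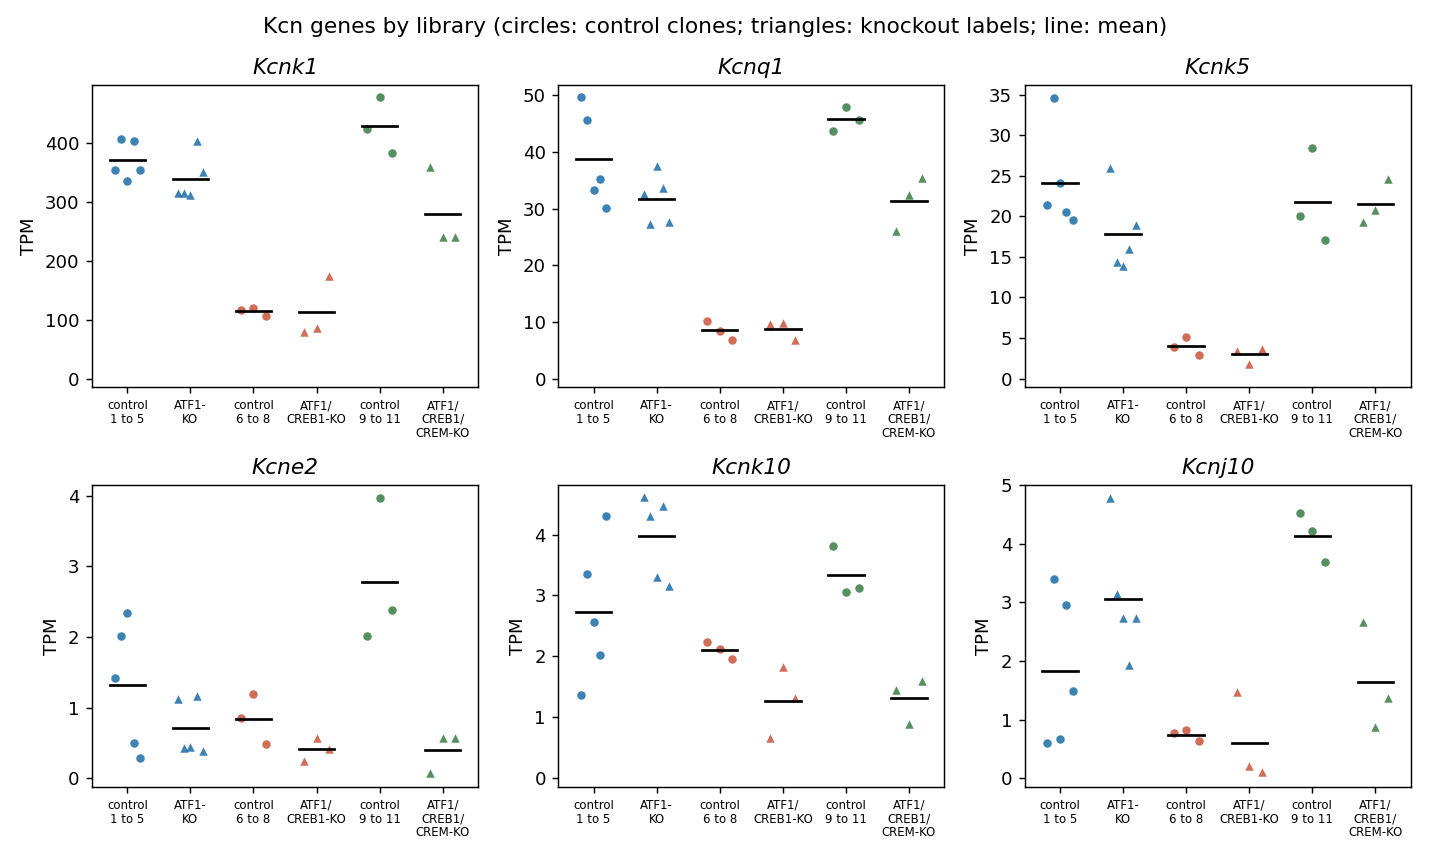
TPM (y axis, linear) of 6 Kcn genes in each of the 22 libraries (x axis, 6 groups; circles are control clones, triangles are knockout labels, colours are experiments and lines are means). In the libraries labelled ATF1/CREB1/CREM-KO, Kcne2, Kcnk10, Kcnq1, Kcnk1 and Kcnj10 all lie below control clones 9 to 11, while Kcnk5 overlaps them.

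Kcnk5, Kcnab2 and Kcnn1, also among the more abundant members, did not pass the test in these libraries. Kcnk5 was at 19.99, 28.48 and 17.03 TPM in control clones 9 to 11 and at 19.35, 20.77 and 24.63 TPM in ATF1/CREB1/CREM-KO 1 to 3, ranges that overlapped, and its log2 change was 0.01 with a 95% interval of -0.47 to 0.48. Genes of chromosome 14, where Kcnk5 lies, had medians of -0.56 and -0.53 in replicates 2 and 3; with chromosome medians removed its change was 0.43 (adjusted p 0.319). Kcnab2 was at 7.52, 9.11 and 7.14 TPM against 8.41, 7.96 and 8.07 TPM, with an interval of -0.29 to 0.38. Kcnn1 had a mean of 4.27 TPM against 3.07 TPM and a log2 change of 0.41 (interval -0.19 to 1.02).

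The calls in ATF1/CREB1/CREM-KO depended on single libraries of the small groups. Without control clone 9, 10 or 11, or without replicate 2 or 3 of the knockout, 0 members were called, and the adjusted p was then 0.0856 to 0.107 for Kcne2, 0.0992 to 0.172 for Kcnk10 and 0.0707 to 0.144 for Kcnq1. Without replicate 1 of the knockout, 7 were called, beside 3317 of all 13233 genes (25.1%): Kcne2, Kcnk10, Kcnq1, Kcnk1 and Kcnj10 lower, and Kcnj13 and Kcnj15 higher. Kcnj15 passed the filter in this setting only through replicates 2 and 3 of the knockout, and so had to differ. With any 1 of the 6 libraries left out the log2 change ran from -1.56 to -1.20 for Kcne2, from -1.01 to -0.78 for Kcnk10 and from -0.63 to -0.42 for Kcnq1. Kcne2 was not called with pseudocount 0.1 (adjusted p 0.0548) or no filter (adjusted p 0.0568). Kcnk10 was not called with pseudocount 0.1 (adjusted p 0.0548), no filter (adjusted p 0.0982), median-ratio scaling (adjusted p 0.0507) or quantile normalization (adjusted p 0.0607). Kcnq1 was not called with no filter (adjusted p 0.0857), median-ratio scaling (adjusted p 0.0619) or quantile normalization (adjusted p 0.0525). Against all 11 control clones, which mixes experiments, none of the 3 was called. With the same contrast, a limma fit over all 22 libraries called Kcne2 (adjusted p 0.0115) and Kcnk10 (adjusted p 0.0279). It did not call Kcnq1 (adjusted p 0.0858), and 8.02% of all genes were called. There too Kcne2 passed the low-value filter only through the control clones.

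**Figure D3:**
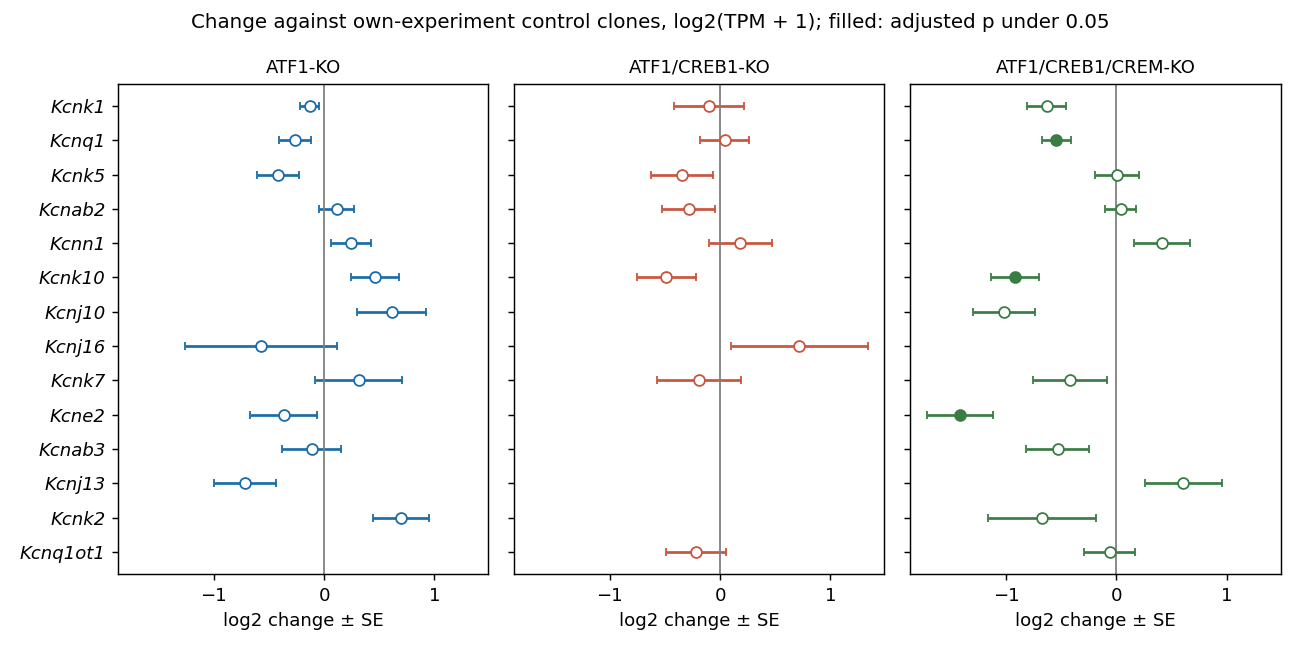
Log2 change ± SE (x axis, log2(TPM + 1) scale) of each member tested (y axis) in the 3 knockout labels against control clones of the same experiment; filled points have an adjusted p under 0.05. The 3 filled points, Kcne2, Kcnk10 and Kcnq1, are all lower in ATF1/CREB1/CREM-KO, and members without a point did not reach the mean of 1 TPM in that comparison.

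No Kcn gene changed in the same direction in all 3 labels with separated libraries. Of 13 members in the fit over all 22 libraries, 0 had every knockout library on the same side of its own control clones in all 3 labels, beside 16 of 13295 genes (0.12%), and 1, Kcnk10, did so in 2 labels. In 2 or 3 labels it was so for 9.54% of all genes. By sign alone, Kcnk1, Kcne2 and Kcnab3 were below 0 in all 3 labels (19.1% of all genes were) and Kcnn1 was above 0 in all 3 (14.8% of all genes were). The mean change over the 3 labels was called for Kcne2 alone, at -0.72 (SE 0.18, limma adjusted p 0.0139), where 11.6% of all genes were called and 7.42% were called lower. The controls of the 3 labels are different libraries. Kcne2 was at 1.42, 2.02, 2.34, 0.50 and 0.29 TPM in control clones 1 to 5 and at 1.12, 0.43, 0.45, 1.16 and 0.39 TPM in ATF1-KO 1 to 5, which overlapped. It was at 0.85, 1.19 and 0.48 TPM in control clones 6 to 8 and at 0.25, 0.57 and 0.42 TPM in ATF1/CREB1-KO 1 to 3, where replicate 2 lay inside the control range. Without control clone 10 Kcne2 fell under the low-value filter and 0 members were called; with chromosome medians removed its mean change was -0.50 (adjusted p 0.0625) and Kcnk1 was called in its place. The chromosome 16 median was -0.34 and -0.33 in ATF1-KO 1 and 2 and -0.41 in ATF1/CREB1-KO 1.

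The change of Kcnk10 differed between labels. It was at 1.37, 3.36, 2.56, 2.03 and 4.30 TPM in control clones 1 to 5 and at 4.62, 4.30, 3.31, 4.47 and 3.16 TPM in ATF1-KO 1 to 5, a log2 change of 0.46 (SE 0.22, adjusted p 0.671) with overlapping ranges. The change in ATF1/CREB1/CREM-KO minus that in ATF1-KO was -1.38 (SE 0.32, limma adjusted p 0.0193, with 3.57% of all genes called for this difference). The difference of ATF1/CREB1-KO from ATF1-KO was -0.95 (adjusted p 0.145) and that of ATF1/CREB1/CREM-KO from ATF1/CREB1-KO was -0.43 (adjusted p 0.756), and neither contrast called any of the 13 members (1.46% and 0.188% of all genes were called). Label and experiment change together in these differences and cannot be told apart. The first difference was not called without control clone 9 (adjusted p 0.0609) or without replicate 2 of ATF1/CREB1/CREM-KO (adjusted p 0.0683), nor with no filter on low values (adjusted p 0.0526).

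Several inward rectifiers differed among libraries of the same label. Kcnj15 (chromosome 16), which encodes Kir4.2, was at 0.08, 2.26 and 2.65 TPM in ATF1/CREB1/CREM-KO 1 to 3 and at 0, 0 and 0.18 TPM in control clones 9 to 11. Kcnj13 was at 0.89, 3.16 and 3.02 TPM against 1.12, 0.91 and 1.21 TPM, and Kcnj1 at 0, 0.37 and 0.42 TPM against 0, 0 and 0.09 TPM. In these 3 genes replicates 2 and 3 were above every control clone of the experiment and replicate 1 was not. The K2P channel Kcnk2 split the other way, at 2.96 TPM in replicate 1 and 0.47 and 0.34 TPM in replicates 2 and 3, against 2.37, 1.18 and 3.31 TPM. Over all 13258 genes, 8.86% and 8.49% differed by more than 1 on the log2 scale between replicate 1 and replicates 2 and 3, and 2.2% between replicates 2 and 3, beside 2.61% to 3.36% between control clones.

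Control clones also differed from each other in these genes. Control clone 1 had 14.79 TPM of Kcnj16 where control clones 2 to 5 had 0.38 to 2.20 TPM, and 2.05 TPM of Kcnj15 where they had 0 to 0.08 TPM. It was also the highest of the 5 for Kcnj13, at 3.24 TPM, for Kcnip2, at 2.15 TPM, and for Kcnip3, at 1.79 TPM; both Kcnip genes encode cytoplasmic calcium-binding subunits of Kv4 channels. Kcnj16 reached 5.17 TPM in ATF1-KO 4 and 4.69 TPM in ATF1/CREB1-KO 3, and stayed at 0.34 to 1.70 TPM in the 6 libraries of experiment 3. Kcnip2, Kcnip3, Kcnh2 and Kcnn3 are named after their values were seen.

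Kcnh2, the hERG subunit that Kcne2 can join, was below the filter in every comparison and so was not tested. It was at 0.83, 1.20 and 0.83 TPM in control clones 9 to 11 and at 0.07, 0 and 0.24 TPM in ATF1/CREB1/CREM-KO 1 to 3. In experiment 2 it was at 0.37, 0.14 and 0.13 TPM in the controls and at 0, 0.01 and 0.02 TPM in ATF1/CREB1-KO 1 to 3, and in experiment 1 at 0 to 0.49 TPM in the controls and 0.44 to 0.77 TPM in ATF1-KO. The knockout libraries thus lay below the controls in experiments 2 and 3 and overlapped them in experiment 1. Among genes tested over all 22 libraries, 9.54% were separated in the same direction in 2 or 3 labels. Kcnn3, also below the filter, went the other way. It was at 0.05 to 0.06 against 0.01 to 0.03 TPM in experiment 2 and at 0.09 to 0.36 against 0 to 0.04 TPM in experiment 3. The values of both genes in experiment 2 are near 0. With no filter on low values, Kcnh2 was the only member called in ATF1/CREB1/CREM-KO, beside 710 of 23792 genes (2.98%).

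**Figure D4:**
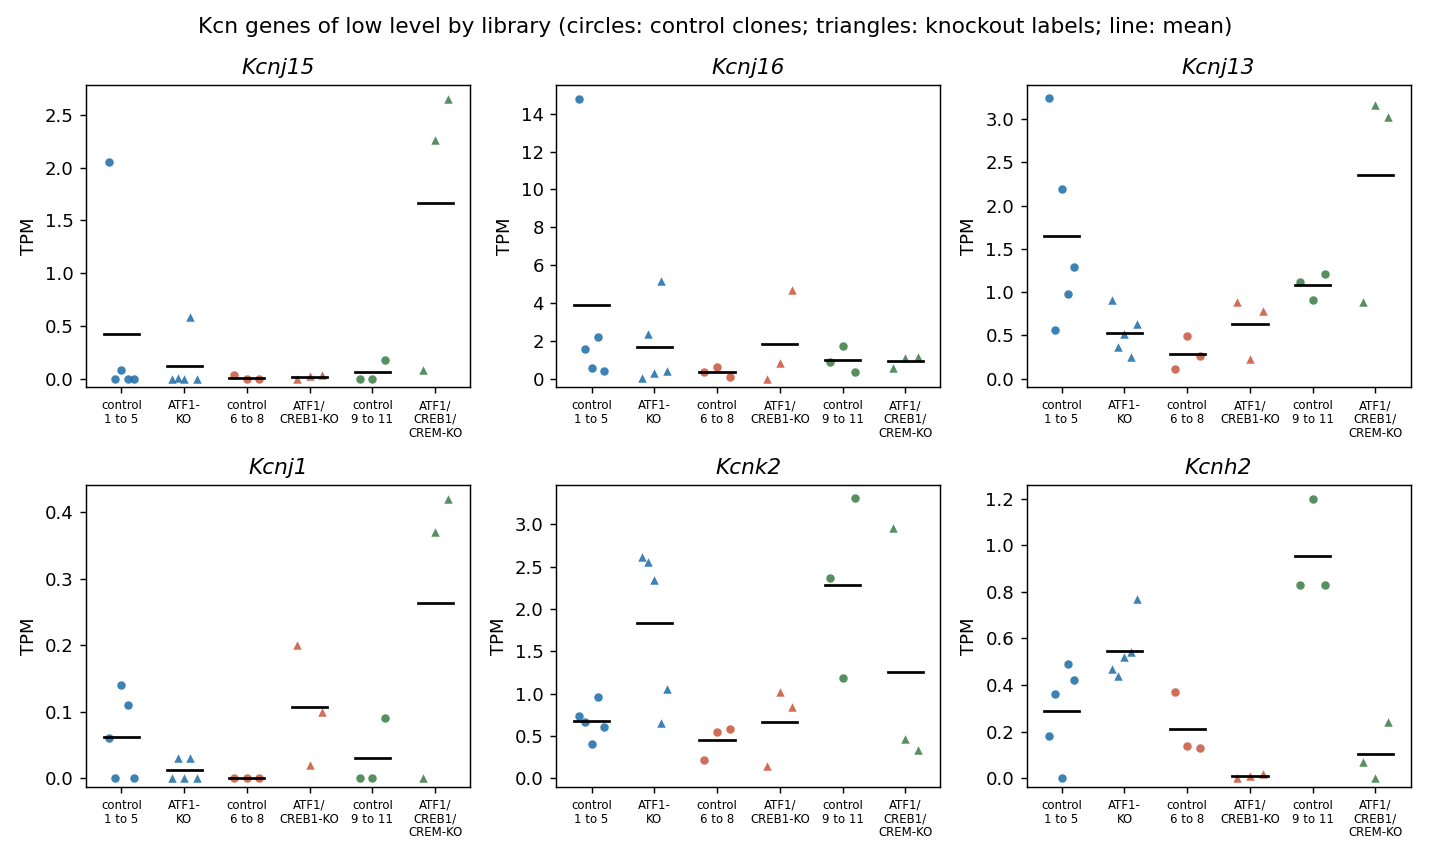
TPM (y axis, linear) of 6 Kcn genes of low level in each of the 22 libraries (x axis, 6 groups; circles are control clones, triangles are knockout labels, colours are experiments and lines are means). Kcnj15, Kcnj13 and Kcnj1 are higher in replicates 2 and 3 of ATF1/CREB1/CREM-KO than in replicate 1, Kcnj16 is at 14.79 TPM in control clone 1, and Kcnh2 is low in the knockout libraries of experiments 2 and 3.

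A few genes of potassium handling rose in the same libraries. Of 37 genes of potassium handling and channel partners outside the Kcn symbols, 24 were tested in ATF1/CREB1/CREM-KO. There 4 were called higher and 0 lower, beside 3.91% of all genes called higher and 5.26% called lower. Sgk1, the aldosterone-induced kinase, rose from a mean of 108 to 1290 TPM (log2 change 3.57, adjusted p 0.00418) and Nr3c2, the mineralocorticoid receptor, from 1.30 to 5.30 TPM (1.47, adjusted p 0.0119). The control mean of Sgk1 was uneven, at 387, 19.9 and 108 TPM in experiments 1, 2 and 3. Sgk1 was lower in ATF1-KO, at 84.0 TPM (-1.39, limma adjusted p 0.713), with overlap. It was higher in ATF1/CREB1-KO, at 159.5 TPM (2.98, limma adjusted p 0.0568). Stk39, the kinase SPAK, rose from 0.52 to 7.76 TPM (2.43, adjusted p 0.013); it passed the filter only through the knockout libraries and so had to differ, and it was not tested in the other labels. Slc12a4, a potassium-chloride cotransporter, rose from 31.1 to 54.2 TPM (0.78, adjusted p 0.011). All 4 had every knockout library above every control clone. Scnn1a, a subunit of the epithelial sodium channel, was at 153 TPM in both groups, with a log2 change of -0.01 (adjusted p 0.966). Lrrc26, an auxiliary subunit of BK channels, was at 22.3 against 31.0 TPM (-0.47, adjusted p 0.128). Fxyd4, a small membrane protein of the FXYD family that regulates ion transport, was at 142 against 529 TPM, with a log2 change of -2.27 that did not pass the test (adjusted p 0.0809). Of 23 partner genes tested in each of the other labels, 0 were called in ATF1-KO and 0 in ATF1/CREB1-KO by limma, with 5 and 3 at an unadjusted p under 0.05. Over all genes, 1014 of 13318 and 1199 of 12579 had such a limma p. The fit over all 22 libraries called 0 and 2 of the 24 partner genes, the 2 being Sgk1 and Nr3c2. Beside these it called 0 and 609 of 13295 genes. Without control clone 11, only Sgk1 of the 4 was called in ATF1/CREB1/CREM-KO, without control clone 9 Sgk1 and Nr3c2, and without replicate 2 Sgk1 and Slc12a4. Without replicate 3 they were Sgk1, Slc12a4 and Stk39. Without replicate 1, 6 genes of the list were called higher and 2, Fxyd4 and Lrrc26, lower, and with chromosome medians removed 4 were called higher and 1, Slc12a2, lower. Without replicate 1, 25.1% of all 13233 genes were called, and 43.8% of those calls were higher. With chromosome medians removed, 52.3% of the calls over all genes were higher.

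Some markers of cell types differed in the same comparison, while the ranges of other marker sums overlapped. No marker sum was tested. In ATF1/CREB1/CREM-KO the summed TPM of the 10 principal cell markers, which include Aqp2 and Fxyd4, was 608.69 to 1395.72 against 1570.19 to 3650.44 in control clones 9 to 11. Aqp2 and Fxyd4 carried this difference: the other 8 markers summed to 523.45 to 1076.22 against 610.43 to 676.22 TPM. Among them Hsd11b2 had a mean of 216 against 64.0 TPM (limma adjusted p 0.686), Aqp3 of 8.39 against 4.64 TPM and Scnn1g of 26.3 against 20.9 TPM. Aqp4 (0.79 against 0.47 TPM) and Scnn1b (1.20 against 0.99 TPM) were also higher by mean, and Scnn1a was level. Avpr2 went the other way, with a mean of 144 against 189 TPM, as did Gata3, with 166 against 216 TPM. The sum of the 7 intercalated cell markers was 69.99 to 102.71 against 90.88 to 115.64 TPM, most of it from Atp6v1b1, and Foxi1 was at 0 in 20 of 22 libraries. The sum of the 2 markers of the distal convoluted tubule was 1.24 to 4.40 against 0.04 to 0.14 TPM, all of it from Slc12a3, since Pvalb was at 0 in all 22 libraries. The 4 proximal tubule markers summed to 1.38 to 25.45 against 19.98 to 21.57 TPM and the 2 leukocyte markers to 2.28 to 3.35 against 5.00 to 8.02 TPM. Transcripts of the mitochondrial genome took 2.06% to 2.63% of TPM against 1.21% to 1.42% in control clones 9 to 11, without overlap, and in experiment 2 they took 3.20% to 4.31% in ATF1/CREB1-KO against 2.08% to 2.33%. The part of these values in the Kcn results was not tested. Fewer cells with a channel and less of its RNA per cell cannot be told apart in bulk libraries.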

How the data were processed

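TPM values for 22 libraries were used as deposited; per the submitters' processing notes the authors used STAR and RSEM, and versions, genome build and annotation are not given in the sources used here. Per the labels, cDNA was amplified by PCR and tagmented without a strand mark, then read in pairs. Each column sums to 1000000 within rounding. Depth is unknown, so no counting interval is given. The 18 rescue samples were not analysed here, and 0 per-sample columns were left unused. Each knockout label was compared with control clones of its own experiment (neighbouring library numbers) with limma 3.58.1 in R 4.3.3 (lmFit, eBayes with a variance trend) on log2(TPM + 1), over genes averaging 1 TPM or more, and p-values were adjusted by Benjamini-Hochberg over every gene tested. Means over labels and differences between them came from a fit of 6 groups over all 22 libraries. Intervals are 95% intervals from limma.

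Members are symbols that start with Kcn, without opposite-strand transcripts. The members, gene lists and tests were chosen with earlier results of these data known. Named members are those with a control mean of at least 1 TPM in any experiment, those called, those separated in all 3 labels, a list of renal channels and called partners; 1 gene of the partner list is not reported here. GENCODE M21 (GRCm38) gave chromosomes and exon overlaps for all 95 members. Alternatives were pseudocount 0.1, no filter, median-ratio and quantile scaling, chromosome medians removed, all 11 control clones, a replicate block, thresholds of 0.5 and 2 TPM for an expressed gene, and leaving out each library. In simulated copies of each comparison, 200 genes were shifted by 2 log2 units: the ATF1-KO comparison recovered 186 (13318 genes), the ATF1/CREB1-KO comparison 150 (12579 genes) and the ATF1/CREB1/CREM-KO comparison 169 (13258 genes). False calls were 5, 7 and 8. The shift was larger than the change of any member tested, and noise was drawn as independent and normal. These recoveries therefore do not describe changes of the size seen in the members.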

Additional observations from a re-analysis of the deposited data

Results flagged for a closer look

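In 28 groups of 5 libraries, made of the 14 expressed Kcn genes in the control clones of experiment 1 and in ATF1-KO, 3 had a library far from the rest, measured by its gap to the nearest library as a share of the whole range. Chance gives about 1 in 20 such groups. Kcnab3 was at 4.48 TPM in control clone 3 and at most 1.47 TPM in the other control clones of experiment 1. Kcnk7 was at 5.47 TPM in control clone 4, where the next was 1.47 TPM. Kcnj16 was at 14.79 TPM in control clone 1, where the next was 2.20 TPM. Between labels, the change of Kcnk10 in ATF1/CREB1/CREM-KO minus that in ATF1-KO was -1.38 on the log2 scale (limma adjusted p 0.0193).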

How the results depend on the processing

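Among the alternative values, 288 kept direction and side of the threshold or, for counts, stayed within 1.5 times (188 tested values and 100 counts), 13 changed sign, 31 lost the threshold, 5 passed it newly and 45 counts moved. With all 11 control clones the genes called were 4260 in ATF1/CREB1-KO and 137 in ATF1/CREB1/CREM-KO, with 3 and 0 Kcn genes, and changes with another sign were 0.27, 0.25 and 0.23 for Kcnk1, Kcnk5 and Kcnq1 in ATF1-KO, -1.52 for Kcnq1 in ATF1/CREB1-KO and 0.21 for Kcnq1 in ATF1/CREB1/CREM-KO; this setting mixes experiments of different composition. Genes called in ATF1/CREB1-KO (9) were 609 in the fit over all 22 libraries, 0 with no filter and 18 with median-ratio scaling, and no filter gave 710 in ATF1/CREB1/CREM-KO (1216). Kcn genes called there (3) were 1 with pseudocount 0.1 (Kcnq1), 1 with no filter (Kcnh2), 1 with median-ratio scaling and 1 with quantile normalization (Kcne2 in both). The share of higher genes among all calls in ATF1/CREB1/CREM-KO was 42.6%, and 53.1% and 53.3% with the latter scalings. Kcn genes called for the mean of the 3 labels (1) were 4 with no filter and 2 with quantile normalization, and those with a difference between labels (1) were 2 with no filter (Kcnh2 and Kcnn3, without Kcnk10). Expressed Kcn genes (7) were 4 at 2 TPM. The cause was not tested.

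Leaving out 1 library at a time gave 0 to 1 genes called in ATF1-KO, 0 to 60 in ATF1/CREB1-KO and 185 to 3317 in ATF1/CREB1/CREM-KO, 0 to 7 Kcn genes in the last, 0 to 2 for the mean of the labels and 0 to 4 for differences between labels. Log2 changes ran from -0.45 to 0.10 for Kcnk1 and from -0.0855 to 0.19 for Kcnq1 in ATF1/CREB1-KO, and from -0.15 to 0.21 for Kcnk5 in ATF1/CREB1/CREM-KO. The replicate block, tried for ATF1-KO where numbers 1 to 5 are shared with control clones, gave 0 calls as without it; correlations of same-numbered libraries were -0.103 to 0.0843 and 2 of 5 control clones matched their own number best, so the numbers were not taken as pairs. No paired analysis was possible for the other labels because their control clones carry other numbers.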
